A study of Mus musculus with 6 samples.

Results

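RNA-seq of infarcted mouse hearts was examined for 9 genes of the renin-angiotensin and natriuretic peptide systems: *Agt*, *Ace*, *Agtr1a*, *Agtr2*, *Nr3c2*, *Corin*, *Npr1*, *Npr2* and *Npr3*. They were chosen by gene symbol for their roles in blood pressure and salt control, and each had 1 row among the 38293 genes of the count table. The tissue was from hearts of WT and *Zeb2* cKO mice, 3 of each, 14 days after permanent occlusion of the left anterior descending artery to induce myocardial infarction (MI). The WT mice carry both floxed *Zeb2* alleles (*Zeb2* fl/fl) without Cre, per the methods, and the *Zeb2* cKO mice carry the same floxed alleles with a Cre recombinase driven by the *Myh6* promoter, which is active in cardiomyocytes. No mice with Cre but without floxed alleles are in the series, so an effect of Cre itself cannot be told apart from that of the deletion. The strain is C57BL/6J (backcrossed), the mice were adult males per the methods, and every library is from an infarcted heart. The tissue is labelled as the border region of the infarct, whereas the methods name the remote zone. The comparison asks how transcript levels in the infarcted heart differ when cardiomyocytes have lost ZEB2, a zinc finger transcription factor that binds E-box sequences.

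In the renin-angiotensin system, angiotensinogen is cut by renin to angiotensin I, and angiotensin-converting enzyme cuts this to angiotensin II, which raises blood pressure mainly through the type 1 receptor. Aldosterone acts downstream through the mineralocorticoid receptor. The natriuretic peptides work against this system: cardiomyocytes release ANP and BNP under stretch, corin activates ANP, and the guanylyl cyclase receptors raise cyclic GMP in vessels, kidney and heart, while the clearance receptor removes the peptides. Both systems are drug targets in heart failure after MI.

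Of the 9 genes, 8 had enough counts to be tested and 0 were called between genotypes at an adjusted p under 0.05, where 0.0% of the 14746 tested genes were called (quasi-likelihood test of edgeR, adjusted by Benjamini-Hochberg). At an unadjusted p under 0.05 the count was also 0 of 8, against 280 genes or 1.9% of all genes tested. In every one of the 8 genes the WT and *Zeb2* cKO values overlapped, whereas the groups were apart in 938 genes or 6.36% of all tested. What the members did show was a split between libraries: WT replicate 2 held the highest or the lowest value of the 6 libraries in 8 of 8 genes, highest for *Ace* and *Npr3* and lowest for the other 6. Over all tested genes this library was highest in 35.2% and lowest in 34.6%, in total 69.8%. The other libraries were at an end of the order for 3 members (WT replicate 1, 33.4% of all genes), 0 (WT replicate 3, 18.8%), 1 (*Zeb2* cKO replicate 1, 34.3%), 3 (*Zeb2* cKO replicate 2, 23.9%) and 1 (*Zeb2* cKO replicate 3, 19.7%).

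These libraries held between 37288174 and 51136331 counts, of which 14301225 to 19024394 lay outside mitochondrially encoded genes. The targeted gene, *Zeb2*, had 61.3, 116 and 71.9 CPM (counts scaled to a common library size after TMM normalization) in the 3 WT libraries and 59.6, 72.6 and 66.5 CPM in the *Zeb2* cKO libraries. The genotypes overlapped, with a log2 fold change of -0.33 (SE 0.25, n = 3 per group) and an adjusted p of 0.957 from edgeR. The labels could therefore not be checked by the targeted gene. By qPCR the paper reports lower *Zeb2* in hearts of *Zeb2* cKO mice, also after MI. Other cells of the tissue can keep *Zeb2*, and their part in the overlap was not tested. Without WT replicate 2 the *Zeb2* log2 fold change was -0.0058. That library stood apart in cell type markers: the summed level of 7 cardiomyocyte markers was 8729 CPM, against 15010 to 18960 CPM in the other 5 libraries, and the summed level of 7 fibroblast markers was 8637 CPM, against 1467 to 1909 CPM. Fold changes and ratios below are therefore also given without it. In bulk tissue, fewer cells of a type and less RNA per cell cannot be told apart.

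Promoter sequences are shown for *Ace* and *Corin*, the 2 genes with the highest levels per transcript length below, to set beside each other a window that holds GC-rich elements and one that does not. RefSeq (GRCm38.p6) gave 9 windows for 8 of the 9 genes, each from 250 bases before to 50 bases after a transcription start; *Ace* has 2, and *Agtr1a* had no entry. The upstream *Ace* window lies at chr11:105967698-105967997 on the plus strand, and the *Corin* window at chr5:72504491-72504790 on the minus strand. Both are written 5′ to 3′, and capitals mark matches to the GC box GGGCGG or its reverse CCGCCC.
Ace: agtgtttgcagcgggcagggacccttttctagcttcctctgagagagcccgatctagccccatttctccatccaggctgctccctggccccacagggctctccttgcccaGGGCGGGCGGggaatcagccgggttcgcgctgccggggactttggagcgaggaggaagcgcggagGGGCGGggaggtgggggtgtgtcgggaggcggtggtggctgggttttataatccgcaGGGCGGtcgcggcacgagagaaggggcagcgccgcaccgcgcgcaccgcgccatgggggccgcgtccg
Corin: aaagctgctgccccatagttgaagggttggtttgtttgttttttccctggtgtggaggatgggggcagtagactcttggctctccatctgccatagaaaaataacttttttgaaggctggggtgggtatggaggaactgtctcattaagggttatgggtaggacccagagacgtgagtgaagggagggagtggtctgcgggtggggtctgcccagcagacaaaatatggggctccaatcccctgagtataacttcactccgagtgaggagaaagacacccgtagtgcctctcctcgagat
The *Ace* window has 4 GC boxes, beginning 140, 136, 75 and 18 bases before the start, of which the first pair overlap by 2 letters, and its GC content was 69.7%. The *Corin* window has 0 GC boxes and a GC content of 51.7%. Among the other windows, *Nr3c2* held 3 and *Npr1* held 2, so that 3 of the 9 windows had a GC box, against 35.7% of 32851 RefSeq windows of the same length. The E-box letters CAGGTG or CACCTG, a known binding sequence of ZEB proteins, were in 0 of the 9 windows and in 20.2% of all windows. GATAA or TTATC, the core letters of the GATA motif, were likewise in 0 of 9 windows and in 25.4% of all. Both strands were searched for each motif, and a missing match says only that these letters are not in the window.

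*Agt* (ENSMUSG00000031980, chr8:124556534-124569706, minus strand, GRCm38) encodes angiotensinogen, the only precursor of the angiotensins, which the liver makes for the circulation. It was near the lower end of what could be tested, at 44, 20 and 49 counts in the WT libraries and 54, 67 and 54 counts in the *Zeb2* cKO libraries. As CPM these were 1.17, 0.456 and 1.28 in WT and 1.08, 1.54 and 1.00 in *Zeb2* cKO. WT replicate 2 was the low library, and the other 5 lay within 1.00 to 1.54 CPM. The mean was 0.967 ± 0.446 CPM in WT and 1.21 ± 0.292 CPM in *Zeb2* cKO (SD, n = 3 each), and the fold change on the log2 scale was 0.33 (SE 0.41, adjusted p = 0.957 from edgeR; exact permutation p = 0.6, two-sided). The smallest p that 3 against 3 libraries allow in the exact test is 0.1. Without WT replicate 2 the log2 fold change turned to -0.02, with a 95% interval from -0.63 to 0.60.

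*Ace* (ENSMUSG00000020681, chr11:105967945-105989964, plus strand) encodes angiotensin-converting enzyme, which sits mainly on endothelial cells and also degrades bradykinin. Its levels were 51.03, 109 and 62.4 CPM in WT and 50.8, 47.9 and 65.5 CPM in *Zeb2* cKO. The library that held the fewest *Agt* counts, WT replicate 2, held the most *Ace*, and the other WT values lay within the *Zeb2* cKO range. The group means were 74.1 ± 30.6 CPM in WT and 54.7 ± 9.39 CPM in *Zeb2* cKO (SD, n = 3 each). *Ace* had the largest fold change in size of the 8 tested genes, -0.44 on the log2 scale (SE 0.29), at an adjusted p of 0.957 from edgeR and an exact permutation p of 0.4. It was -0.05 without WT replicate 2, with a 95% interval from -0.42 to 0.32. In the summed endothelial markers (*Pecam1*, *Cdh5* and 5 others) WT replicate 2 was at 361 CPM, below the 441 to 523 CPM of the other libraries, while *Ace* was higher there. The markers were split: *Pecam1*, *Cdh5*, *Kdr* and *Tie1* were lowest in this library, and *Tek*, *Erg* and *Emcn* were highest, with *Emcn* at 49.1 CPM against 23.9 to 31.6 CPM. Part of the *Ace* exons, 5.58% of their bases, overlaps the antisense gene *Gm11651*, which had 1 count in all 6 libraries together.

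*Agtr1a* (ENSMUSG00000049115, chr13:30336441-30382867, plus strand) encodes the main angiotensin II type 1 receptor of the mouse, a G protein-coupled receptor that mediates vasoconstriction and is the target of sartans. WT libraries had 17.0, 6.08 and 11.2 CPM and *Zeb2* cKO libraries had 16.6, 18.4 and 10.5 CPM. The values ran over a wide range within both genotypes, with the third replicate of each near 11 CPM and WT replicate 2 at the low end. Means were 11.4 ± 5.46 CPM in WT and 15.2 ± 4.11 CPM in *Zeb2* cKO (SD, n = 3 each). This gave the largest positive log2 fold change of the 8 genes, 0.41 (SE 0.38, adjusted p = 0.957 from edgeR; exact permutation p = 0.5), and 0.11 without WT replicate 2, with a 95% interval from -0.51 to 0.72. *Agtr2* (ENSMUSG00000068122, chrX:21484544-21489164, plus strand), the type 2 receptor that is abundant in fetal tissue, had 0, 1 and 0 counts in WT and 4, 1 and 0 counts in *Zeb2* cKO. It did not pass the filter on low counts, and a difference was not detectable at this depth. The paralog *Agtr1b* was also removed by the filter.

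*Nr3c2* (ENSMUSG00000031618, chr8:76899442-77245012, plus strand) encodes the mineralocorticoid receptor, a nuclear receptor that binds aldosterone and, in heart muscle, also glucocorticoids. The WT libraries had 17.4, 9.94 and 12.3 CPM, and the *Zeb2* cKO libraries had 19.2, 17.1 and 12.3 CPM. WT replicate 2 was lowest again, by a smaller margin than in *Agt* or *Agtr1a*, and the third replicates of both genotypes had nearly the same value. With means of 13.2 ± 3.83 CPM in WT and 16.2 ± 3.55 CPM in *Zeb2* cKO (SD, n = 3 each), the log2 fold change was 0.30 (SE 0.25, adjusted p = 0.957 from edgeR; exact permutation p = 0.4). It was 0.13 without WT replicate 2, with a 95% interval from -0.38 to 0.64. When WT replicate 1 was left out it was 0.55, at an adjusted p of 0.596 from edgeR, which *Ace* (-0.64) and *Agtr1a* (0.82) had as well in that setting. *Nr3c2* and *Npr2* were then both without overlap between the genotypes, in a setting where 23.0% of all tested genes were.

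*Corin* (ENSMUSG00000005220, chr5:72300025-72504473, minus strand) encodes the transmembrane serine protease of cardiomyocytes that cuts pro-ANP to the active hormone. It had 84.9, 33.0 and 61.3 CPM in WT and 46.0, 63.8 and 68.7 CPM in *Zeb2* cKO. Both the highest and the lowest library were WT, so all 3 *Zeb2* cKO values lay within the WT range. The means were 59.7 ± 25.9 CPM and 59.5 ± 11.9 CPM (SD, n = 3 each), and the log2 fold change was -0.01 (SE 0.34, adjusted p = 0.999 from edgeR; exact permutation p = 0.8), with a 95% interval from -0.81 to 0.80. Over the other 5 libraries it was -0.29 with an interval from -0.76 to 0.18, and *Corin* was then the only member past a log2 fold change of 0.2 in either direction. The summed cardiomyocyte markers were lowest in the same library as *Corin*, WT replicate 2. Their part in the *Corin* values was not tested.

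**Figure D1:**
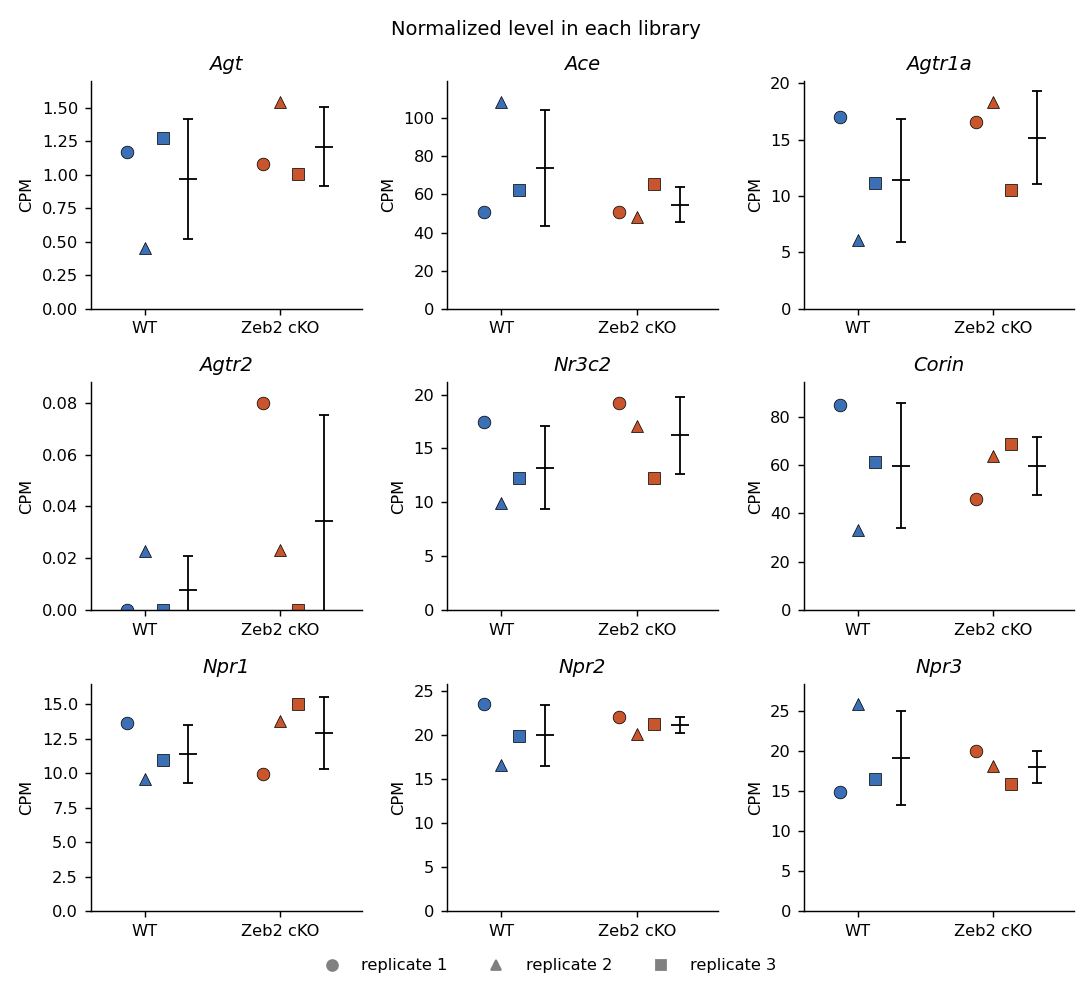
Normalized level (CPM, vertical axes from 0) of the 9 genes in each of the 3 WT (blue) and 3 Zeb2 cKO (orange) libraries, with mean and SD bars (n = 3); bars that would pass below 0 for Agtr2 end at the axis. The genotypes overlap in every panel, and WT replicate 2, the blue triangle, is highest for Ace and Npr3 and lowest for the other 6 tested genes.

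*Npr1* (ENSMUSG00000027931, chr3:90450591-90465866, minus strand) encodes the guanylyl cyclase receptor for ANP and BNP. Its values were 13.6, 9.59 and 10.9 CPM in WT and 9.95, 13.8 and 15.0 CPM in *Zeb2* cKO. The lowest libraries of both genotypes were close together, and no library stood far from the rest. Mean levels of 11.4 ± 2.07 CPM and 12.9 ± 2.63 CPM (SD, n = 3 each) gave a log2 fold change of 0.18 (SE 0.20, adjusted p = 0.957 from edgeR; exact permutation p = 0.4). Without WT replicate 2 it was 0.07, with a 95% interval from -0.37 to 0.52. *Npr1* shares 11.7% of its exon bases with the antisense gene *Gm16048*, whose counts over the 6 libraries came to 0.092% of those of *Npr1*.

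*Npr2* (ENSMUSG00000028469, chr4:43631935-43651244, plus strand) encodes the guanylyl cyclase receptor for the C-type peptide, which controls bone growth and acts in fibroblasts and vessels. WT libraries had 23.5, 16.6 and 19.8 CPM, and *Zeb2* cKO libraries had 22.0, 20.2 and 21.3 CPM. The *Zeb2* cKO values were the tightest of any tested member, with a coefficient of variation of 4.38%, and all lay inside the WT range. The means were 19.97 ± 3.47 CPM and 21.2 ± 0.925 CPM (SD, n = 3 each), and the log2 fold change was 0.08 (SE 0.15, adjusted p = 0.957 from edgeR; exact permutation p = 0.6). Its 95% interval, from -0.27 to 0.43, was the narrowest of the 8 genes. Without WT replicate 2 the sign turned to -0.03, with an interval from -0.29 to 0.23.

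*Npr3* (ENSMUSG00000022206, chr15:11839896-11907287, minus strand) encodes the clearance receptor, which lacks the guanylyl cyclase domain and takes natriuretic peptides into the cell for degradation. It had 14.9, 25.8 and 16.6 CPM in WT and 19.96, 18.2 and 15.9 CPM in *Zeb2* cKO. Unlike the 2 cyclase receptors, *Npr3* was highest in WT replicate 2, 0.60 above the mean of the other 5 libraries on the log2 scale. Means of 19.1 ± 5.89 CPM and 18.0 ± 2.03 CPM (SD, n = 3 each) gave a log2 fold change of -0.09 (SE 0.22, adjusted p = 0.967 from edgeR; exact permutation p = 0.9). Without that library the sign turned to 0.20, with a 95% interval from -0.10 to 0.49.

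Taking the 8 genes as a list, 1 lay below a log2 fold change of -0.2 (*Ace*), beside 22.6% of all genes tested, and 3 lay above 0.2 (*Agt*, *Agtr1a* and *Nr3c2*), beside 15.9%. Their median log2 fold change was 0.13, against -0.01 over all genes. When WT replicate 2 was left out, the same counts were 1 lower (*Corin*) and 0 higher, beside 11.7% and 14.2% of all genes, and the median was 0.03. The plot of fold changes shows how far each value moved with that library.

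**Figure D2:**
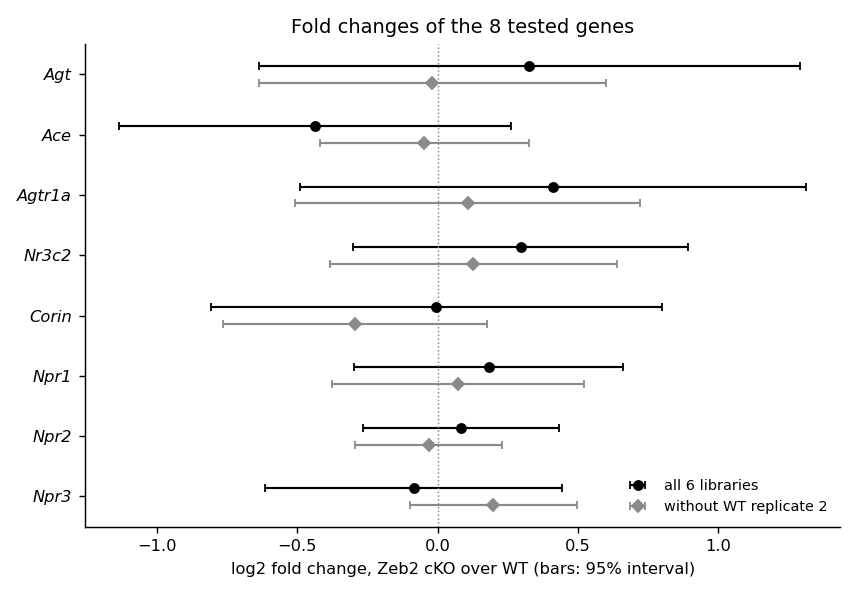
Log2 fold change of Zeb2 cKO over WT (horizontal axis) of the 8 tested genes with 95% intervals, for all 6 libraries (black) and without WT replicate 2 (grey). Every interval crosses 0 in both fits, and Ace moves from -0.44 to -0.05.

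Levels were set beside each other as CPM per kilobase of merged exon, averaged over the 6 libraries. The order ran from *Ace* (12.2) and *Corin* (11.0) through *Agtr1a* (4.77), *Npr2* (4.40), *Npr1* (2.54), *Nr3c2* (2.27) and *Npr3* (1.98) to *Agt* (0.575) and *Agtr2* (0.0063). *Ace* and *Corin* did not differ beyond their spread: *Ace* ranged from 9.07 to 20.6 CPM per kilobase, *Corin* from 6.12 to 15.7, and *Ace* was the higher in 3 of 6 libraries. The pair *Agtr1a* and *Npr2* was likewise in this order in only 3 libraries. *Corin* was above *Agtr1a* in 6 of 6 libraries, although their ranges over all libraries overlapped. *Npr1*, *Nr3c2* and *Npr3* overlapped in range, and both neighbouring pairs kept this order in 5 of 6 libraries. Ranges were apart between *Npr2* and *Npr1*, between *Npr3* and *Agt*, and between *Agt* and *Agtr2*. Among the natriuretic receptors the type for the C-type peptide thus had the highest level per length, and the clearance receptor the lowest in the mean.

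**Figure D3:**
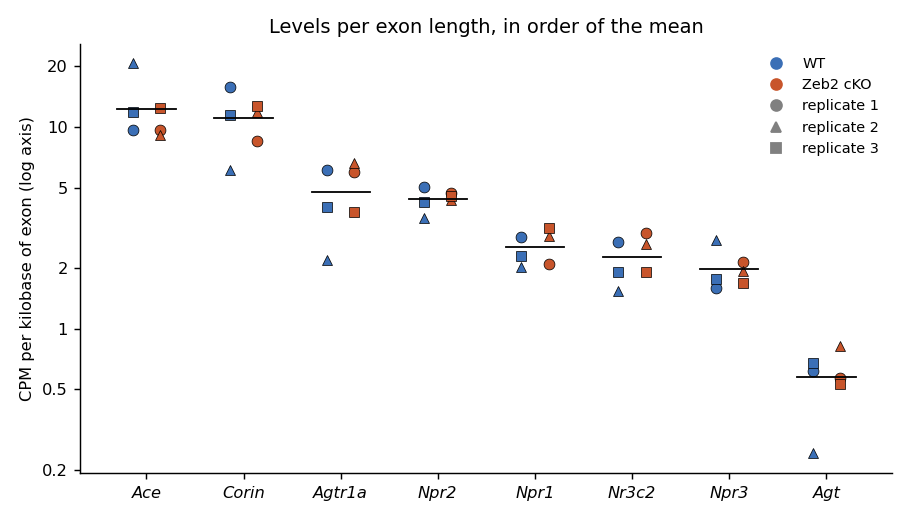
Level per exon length (CPM per kilobase of exon, log axis) of the 8 tested genes in every library, with the mean of 6 libraries as a line; WT in blue, Zeb2 cKO in orange. Ace and Corin lie together at the top with means of 12.2 and 11.0, and Agt lies below all others at 0.575.

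Ratios of 2 genes within a library were compared between genotypes for 3 pairs, by exact permutation tests on the log2 scale. They are ratios of counts that were not divided by exon length. *Npr3* therefore lies above *Npr1* here, although its mean level per length was lower. The log2 ratio of *Npr3* to *Npr1*, clearance against cyclase receptor, was 0.13, 1.43 and 0.60 in WT and 1.00, 0.40 and 0.09 in *Zeb2* cKO. *Zeb2* cKO minus WT was -0.22 (exact p = 0.6, two-sided), and 0.13 without WT replicate 2, the library with the highest ratio. *Npr2* to *Npr1* was the steadiest ratio in WT, at 0.78, 0.79 and 0.86, with 1.14, 0.55 and 0.50 in *Zeb2* cKO, a difference of -0.08 (exact p = 1.0). WT replicate 2 did not stand apart there, and without it the difference was -0.09. For *Agtr2* to *Agtr1a* the log2 ratio, with 0.5 added to each count, was between -10.3 and -7.48 in WT and between -10.1 and -7.53 in *Zeb2* cKO (difference 0.27, exact p = 0.8). It rests on the 0 to 4 counts of *Agtr2*: in the 3 libraries with 0 counts the value is set by the *Agtr1a* count and the added 0.5. The difference was 1.12 without WT replicate 2, and it turned to -0.49 with 5 added to each count and to negative values when WT replicate 1, WT replicate 3 or *Zeb2* cKO replicate 1 was left out, so no direction is given. Over these 3 ratios the smallest p was thus 0.6, or 1.0 after Benjamini-Hochberg adjustment (exact tests).

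Beyond the 9 genes, 28 other renin-angiotensin genes and 26 other natriuretic pathway genes were listed. Of the first list 27 had a row and 19 were tested, and *Ren2* was not analysed here. None of the 19 was called (0 at an adjusted p under 0.05 and 0 at an unadjusted p under 0.05, edgeR). In size, 5 lay below -0.2 and 3 above 0.2, beside 22.6% and 15.9% of all tested genes, and the median was -0.06 (0.02 without WT replicate 2). *Ren1*, renin itself, had 0, 0 and 1 counts in WT and 1, 0 and 0 counts in *Zeb2* cKO. The 3 genes of this list with the smallest unadjusted p were *Anpep*, *Atp6ap2* and *Sgk1*.

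*Anpep*, an aminopeptidase of angiotensin III, had 26.9 CPM in WT replicate 2 and 5.84 to 7.69 CPM elsewhere, so that its log2 fold change went from -0.91 (exact permutation p = 0.9) to 0.16 without that library. *Atp6ap2*, the (pro)renin receptor and a subunit of the vacuolar proton pump, did the same on a smaller scale, at 24.5 CPM against 12.4 to 14.6 CPM, and its log2 fold change went from -0.37 to -0.02. *Sgk1*, a kinase induced through the mineralocorticoid receptor, also had a negative log2 fold change, but this grew in size without WT replicate 2. It had 49.1, 25.5 and 36.6 CPM in WT and 25.3, 30.5 and 31.6 CPM in *Zeb2* cKO (log2 fold change -0.35, SE 0.24, exact permutation p = 0.4). WT replicate 2 lay among the *Zeb2* cKO values, and without it the groups did not overlap (-0.55, adjusted p = 0.9997 from edgeR), as in 15.5% of all tested genes. This list held 2 genes without overlap in that setting, and the other was higher in *Zeb2* cKO.

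Of the natriuretic list 25 had a row and 22 were tested, and *Pde2a* was not analysed here. Again 0 were called, and 1 of 22 had an unadjusted p under 0.05, beside 1.9% of all tested genes. In this list 6 lay below -0.2 and 5 above 0.2, beside 22.6% and 15.9% of all tested genes, with a median of -0.10 (-0.01 without WT replicate 2). The 1 gene was *Nppa*, which encodes ANP, the ligand of *Npr1* and the substrate of corin. Its WT libraries had 337, 716.5 and 309 CPM and its *Zeb2* cKO libraries 189, 131.5 and 188 CPM. Every WT value lay above every *Zeb2* cKO value, and groups were apart in 6.36% of all tested genes. The log2 fold change was -1.42 (SE 0.36), which did not pass at an adjusted p of 0.957 from edgeR; the exact permutation p was 0.1, the smallest possible. Without WT replicate 2, the highest library, the genotypes were again apart, as in 15.5% of all tested genes, at a log2 fold change of -0.93 (adjusted p = 0.9997 from edgeR). The natriuretic list held 3 genes without overlap in that setting, and those beside *Nppa* were higher in *Zeb2* cKO. The antisense gene *Gm13054* overlaps 61.6% of the longest *Nppa* transcript, and its counts came to 0.048% of those of *Nppa*. *Nppa* is also a gene of atrial muscle, and the summed level of 4 atrial markers (*Myl4*, *Myl7*, *Sln* and *Bmp10*, of which 1 was at 0 in all libraries) was 1.504 to 3.62 CPM in WT and 2.16 to 17.1 CPM in *Zeb2* cKO. The highest sum was in *Zeb2* cKO replicate 2, the library with the lowest *Nppa*. The part of atrial tissue in the *Nppa* values was not tested.

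*Nppb*, which encodes BNP, had 117, 318 and 224 CPM in WT and 131, 135 and 168 CPM in *Zeb2* cKO. The groups overlapped through WT replicate 1, and the log2 fold change was -0.60 (SE 0.35, exact permutation p = 0.4), or -0.24 without WT replicate 2. *Nppc*, the C-type peptide and ligand of *Npr2*, had 0, 0 and 1 counts in WT and 1, 0 and 3 counts in *Zeb2* cKO and was not tested. Next in the list by unadjusted p were *Ide* and *Rgs4*. *Ide*, the insulin-degrading enzyme, which also cleaves natriuretic peptides, had 48.2, 60.6 and 61.6 CPM in WT and 90.1, 76.0 and 60.8 CPM in *Zeb2* cKO (log2 fold change 0.41, SE 0.18, exact permutation p = 0.2; 0.46 without WT replicate 2). *Rgs4*, a regulator of G protein signalling, had 21.5, 20.6 and 15.5 CPM in WT and 15.3, 16.0 and 15.2 CPM in *Zeb2* cKO (-0.31, SE 0.15, exact permutation p = 0.2; -0.25 without WT replicate 2). Both overlapped between genotypes by a single library of one group. The soluble guanylyl cyclase subunit *Gucy1a1*, singled out after its values were seen, was at 124.5 CPM in WT replicate 2 and at 28.1 to 32.1 CPM in the other libraries.

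**Figure D4:**
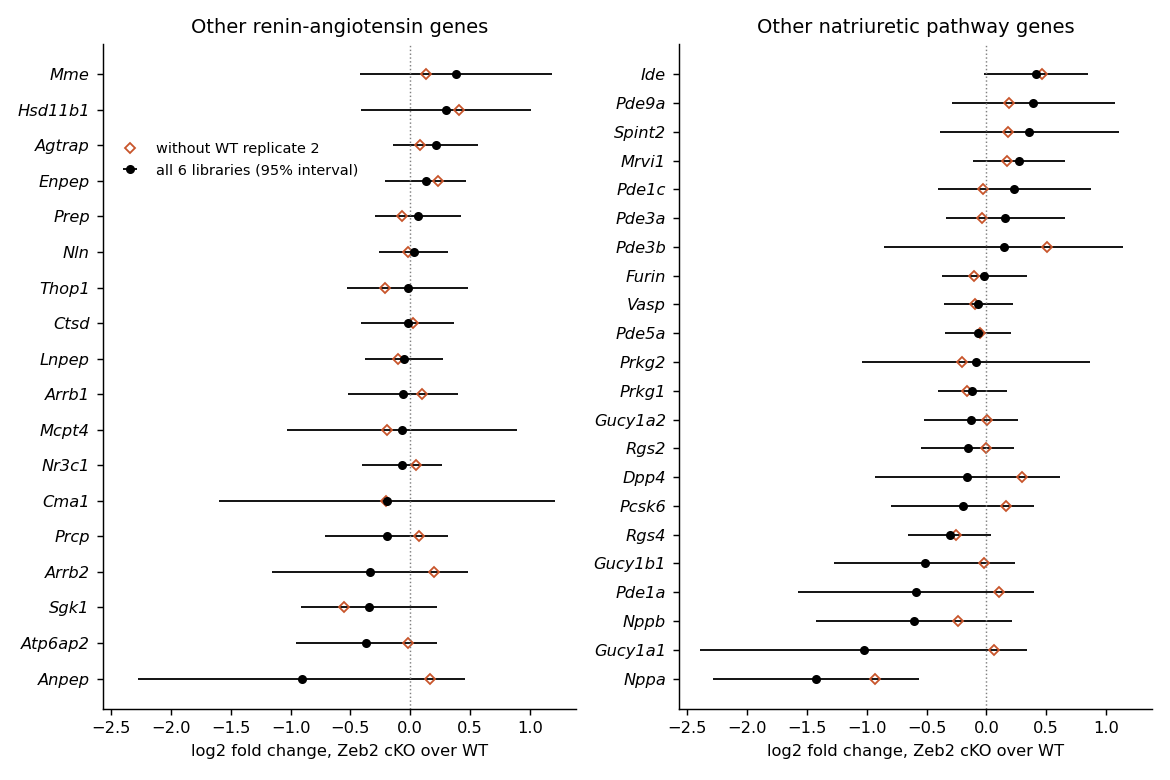
Log2 fold change of Zeb2 cKO over WT (horizontal axes) of 18 renin-angiotensin and 22 natriuretic pathway genes, with 95% intervals for all 6 libraries (black) and the value without WT replicate 2 (open diamonds). Only the interval of Nppa leaves out 0, and Anpep and Gucy1a1 move most when that library is left out.

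The dependence on WT replicate 2 ordered the members. Its log2 CPM minus the mean of the other 5 libraries was 0.98 for *Ace* and 0.60 for *Npr3*, and -0.36 for *Npr2*, -0.38 for *Npr1*, -0.63 for *Nr3c2*, -0.95 for *Corin*, -1.23 for *Agtr1a* and -1.32 for *Agt*. Over marker lists the same measure was 3.05 for 5 activated fibroblast genes, 2.08 for 7 fibroblast genes, 1.64 for 8 macrophage genes and 0.83 for 4 endocardial genes. It was -0.88 for 7 cardiomyocyte genes, -0.46 for 5 pericyte genes and -0.28 for 7 endothelial genes. Lists at low levels or with few tested genes gave -2.02 (3 atrial genes), -1.44 (1 fat cell gene), -0.23 (3 mast cell genes), 0.57 (2 Schwann cell genes) and 0.87 (4 mesothelial genes), and the smooth muscle and red cell lists lay at -0.01 and 0.08. Every fibroblast, activated fibroblast, macrophage and endocardial marker tested was highest in this library, and 6 of 7 cardiomyocyte markers were lowest. The summed level of the 8 macrophage markers was 823 CPM there and 207 to 288 CPM in the other 5 libraries. None of these lists, nor those for atrial, smooth muscle, mast, fat, mesothelial, Schwann or red cells, had a gene called between genotypes (0 of 64 tested by edgeR, and 0 at an unadjusted p under 0.05). The part of cell composition in the members' values was not tested.

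**Figure D5:**
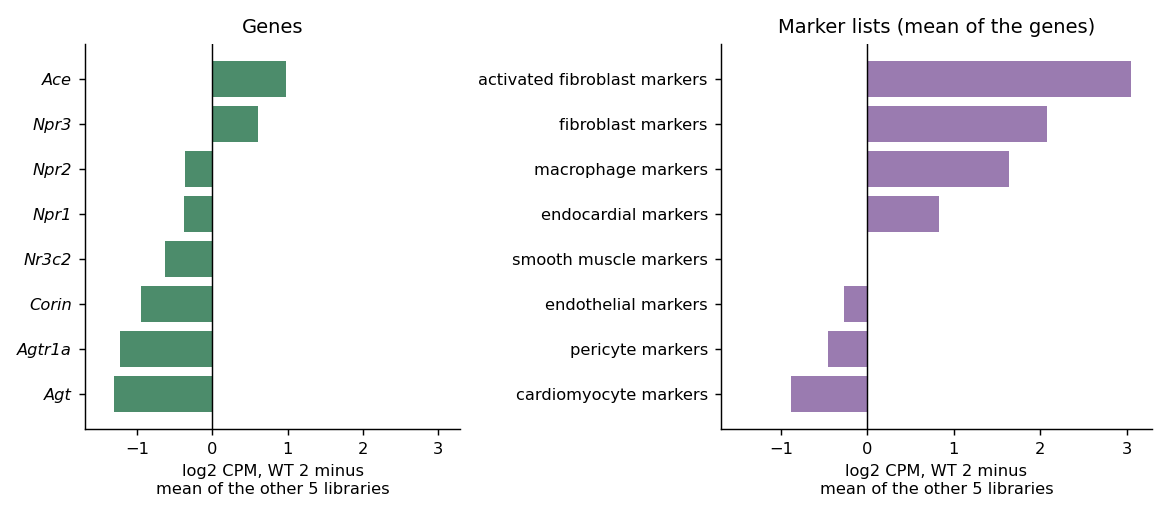
Difference between WT replicate 2 and the mean of the other 5 libraries (log2 CPM, horizontal axes) for the 8 tested genes (left) and for the means of the cell type marker lists drawn, which need not be all lists (right). Ace and Npr3 share the positive side with fibroblast, macrophage and endocardial markers, and the other 6 genes share the negative side with cardiomyocyte markers and with the means of the pericyte and endothelial lists, in which 1 of 5 and 3 of 7 markers were highest in this library.

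The members were also compared among themselves and with other genes by the shape of their 6 values, as the root mean square difference of log2 CPM after each gene's own mean was taken off. These values share libraries and are a description. The closest members were *Npr1* and *Npr2* (0.21), followed by *Nr3c2* and *Npr2* (0.24) and *Agtr1a* and *Nr3c2* (0.25). *Ace* was closest to *Npr3* (0.29) and farthest from *Agtr1a* (0.95). Among 8120 other genes with a mean of at least 5 CPM, the pattern most like *Agt* was that of *Acads*, an enzyme of fatty acid oxidation (0.11), then *Sord*, sorbitol dehydrogenase (0.13), where the median gene was at 0.52. For *Ace* they were *Litaf* (0.02) and the lysosomal enzyme *Gusb* (0.05), beside a median of 0.45. *Agtr1a* was most like *Asb10* (0.10) and *Fitm1*, a lipid droplet protein of muscle (0.11), beside 0.54. *Nr3c2* was most like *Selenbp1* (0.06) and the histone deacetylase *Hdac11* (0.08), beside 0.35.

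For *Corin* the most alike genes were *Ints1*, an Integrator subunit (0.07), and *Adgrg1* (0.08), beside a median of 0.44. *Npr1* was matched by *Dnm3*, a dynamin (0.08), and *Uaca* (0.08), beside 0.30. The 2 genes nearest to *Npr2* were the claudin *Cldn12* (0.02) and the DNA repair gene *Xpc* (0.03), beside 0.21, and those nearest to *Npr3* were *Tvp23b* (0.03) and *Smpdl3a* (0.04), beside 0.33. *Selenbp1* is uncertain, since 100% of its longest transcript has a near-identical copy in *Selenbp2*, and so are *Sord* (45.5%) and *Hdac11* (26.1%). Over the longest transcript of each member, *Agt*, *Agtr1a*, *Agtr2*, *Npr2* and *Npr3* had no near-identical stretch in another gene, and those of *Ace*, *Nr3c2*, *Corin* and *Npr1* were with genes on the opposite strand, whose counts were at most 0.713% of the member's own. Over all annotated exons, *Npr2* also shares 5.7% of its bases with *Gm12473*, which had 0 counts, and *Npr3* shares 3.42% with *Gm5144*, whose counts were not analysed here.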

How the data were processed

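The deposited table holds raw counts that the authors made, for 38293 genes in 6 libraries. Per the methods, total RNA was depleted of ribosomal RNA, prepared with a stranded kit, sequenced as single reads of 75 bases, and aligned and counted with STAR on Gencode M4 (GRCm38). The submitters' processing notes name DESeq 1.2. The strand setting of the counting is not given in the sources used here. Each column was matched to a sample by its label, and 0 columns were left over. All groups come from the genotype label.

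Symbols and positions came from Gencode M21 of the same build by gene identifier, and 14573 of 14746 tested genes had one. *Irag1* was found under its older symbol *Mrvi1*. Counts were normalized with TMM and tested with glmQLFit and glmQLFTest in edgeR 4.0.16 (R 4.3.3) after filterByExpr, with genotype as the factor and Benjamini-Hochberg adjustment over all genes kept. Single values were compared with exact permutation tests (Python 3.11.15, scipy 1.17.1). DESeq2 1.42.0 was an alternative. Stretches shared with other genes were sought by BLAST 2.17.0 at 75 bases or more and 95% identity or more. Replicates are separate mice per the methods. Depth was at least 14301225 counts outside mitochondrially encoded genes, and it limits the precision of genes of few counts. The parts of mice, dissection and counting in the spread between libraries were not tested.

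The rule for named genes took *Zeb2*, the 9 members, *Nppa*, *Nppb*, *Nppc*, the 3 genes of each pathway list with the smallest unadjusted p, and the 2 genes most alike to each member. *Ren1*, *Agtr1b* and *Gucy1a1* were added after their values were seen. Another gene of the rule and the ratio made with it are not reported here, although the gene is counted with its list. The members and all lists were chosen with earlier results of these data known. Replicate numbers 1 to 3 occur in both genotypes but belong to different animals and were used as a block only in 1 alternative.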

Additional observations from a re-analysis of the deposited data

How the results depend on the processing

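Over normalization, filter, dispersion, mitochondrial genes, prior count, tool and replicate block, 0 members were called and 0 had an unadjusted p under 0.05, also when each library was left out. Across the processing alternatives, 69 log2 fold changes of the members and *Zeb2* kept their direction and 3 turned, all of *Corin*, to 0.0007 with upper quartile scaling, 0.013 without a filter on low counts and 0.079 with the replicate block. DESeq2 called 1 gene of the whole table, *Slc46a2*, named after its values were seen, and edgeR called 0 in each setting. With 5 in place of 0.5 added to the counts, the log2 ratio difference for *Agtr2* to *Agtr1a* turned from 0.27 to -0.49. The *Agtr2* counts were 0 to 4, below the 5 that was added in that setting, so no direction is given for this ratio.

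Leaving out each library in turn gave log2 fold changes of -0.64 to -0.05 for *Ace*, -0.0186 to 0.58 for *Agt*, 0.11 to 0.82 for *Agtr1a*, -0.29 to 0.34 for *Corin*, 0.06 to 0.34 for *Npr1*, -0.0323 to 0.22 for *Npr2*, -0.23 to 0.20 for *Npr3*, 0.13 to 0.55 for *Nr3c2* and -0.50 to -0.0058 for *Zeb2*. The ratio differences ran from -0.42 to 1.12 for *Agtr2* to *Agtr1a*, -0.28 to 0.0365 for *Npr2* to *Npr1* and -0.52 to 0.13 for *Npr3* to *Npr1*. Members without overlap numbered 0 to 2: *Npr2* and *Nr3c2* higher without WT replicate 1, *Npr1* higher without *Zeb2* cKO replicate 1 and *Ace* lower without *Zeb2* cKO replicate 3, where 23.0%, 10.9% and 22.6% of all tested genes were apart. An exact test of 2 against 3 cannot go below 0.2. Genes with an unadjusted p under 0.05 numbered 122 without *Zeb2* cKO replicate 1 and 1134 without WT replicate 1.

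Same-numbered libraries of the 2 genotypes did not deviate together (r = 0.09, -0.14 and -0.09 across genes for numbers 1, 2 and 3), and the replicate block gave 247 genes with an unadjusted p under 0.05, against 280, and 0 calls. *Agtr2*, *Nppc* and *Ren1* are limited by depth.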
